A study of Homo sapiens with 9 samples.

Results

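Of the 60623 genes listed in the deposited FPKM tables, 9 were followed here: JUN, JUNB, JUND, FOS, FOSB, FOSL2, EGR1, EGR2 and BATF3, each found by its gene name in all 9 libraries, and none of these names was listed more than once. JUN, FOS and BATF proteins are basic leucine zipper (bZIP) factors, which bind DNA as pairs, and the JUN and FOS proteins together form AP-1. EGR1 and EGR2 are zinc finger factors. FOS, FOSB, JUN, JUNB and EGR1 are the textbook immediate early genes: their transcripts are short-lived, and a stimulus that passes through the MAP kinases and serum response factor (SRF) switches them on within minutes without new protein synthesis. In monocytic cells the same factors take part in the response to growth factors, phorbol ester and stress and in differentiation towards macrophages.

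The cells were U937, which derive from a human histiocytic lymphoma and are of monocytic type, as 3 stable lines made with a doxycycline-inducible retroviral vector under puromycin selection. One line carried HA-tagged AML1-ETO, the RUNX1-RUNX1T1 fusion of acute myeloid leukemia, one carried HA-tagged ETO2-GLIS2, the CBFA2T3-GLIS2 fusion, and one carried the empty vector. RNA was sequenced after doxycycline at 5 μg/ml for 0, 12 or 48 h, with 1 library for each of the 9 conditions. Both fusion lines were single clones, so a difference between lines cannot be assigned to the fusion protein rather than to the clone, and since none of these libraries is an untreated culture at 12 or 48 h, doxycycline and time in culture cannot be told apart. With 1 library per condition there was no replicate check and no p-value. The values in brackets are exact 95% intervals from the reads behind each value, and they cover counting error only.

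The libraries held 15136393 to 18443633 reads on genes. RUNX1T1, which the AML1-ETO construct carries, stood at 0.512, 22.2 and 28.7 FPKM at 0, 12 and 48 h in the AML1-ETO clone and at no more than 0.0240 FPKM in the other lines. CBFA2T3 and GLIS2, which the ETO2-GLIS2 construct carries, went from 4.10 and 2.39 FPKM at 0 h to 12.6 and 8.85 FPKM at 48 h in the ETO2-GLIS2 clone. Neither was more than 2-fold above empty vector cells at 12 h, and both were at 48 h. The monocytic label was checked with 12 markers, whose summed level ran from 325.566 FPKM in AML1-ETO at 48 h to 2241.65 FPKM in ETO2-GLIS2 at 12 h, with CD14, a marker of mature monocytes, at or near 0 in every library. Of 13 markers of other cell types, 7 to 9 were listed at 0 in each library and their sum stayed between 17.5 and 30.3 FPKM.

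One pattern was shared by the 3 lines. EGR1, FOS and FOSB were highest before doxycycline and were far lower at 12 and 48 h, and JUN and JUNB were lower by a smaller factor. A gene was called higher or lower when it differed more than 2-fold between 2 libraries in which its mean was at least 1 FPKM, on the scale of log2 of FPKM plus 0.01. At 12 h against 0 h, 5 of the 8 members that reached this level fell and 1 rose in empty vector cells, where 1.88% of all 11694 genes tested were lower and 5.64% were higher. With AML1-ETO 6 of 8 fell and 1 rose, against a background of 2.39% lower and 6.57% higher. With ETO2-GLIS2 5 of 6 fell and none rose, against 1.46% lower and 3.03% higher. The median change of the 9 members was -1.02, -1.93 and -1.14 on the log2 scale in the empty vector, AML1-ETO and ETO2-GLIS2 lines, beside 0.14, 0.18 and 0.11 for all genes tested.

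At 48 h against 0 h, in empty vector cells 4 of 8 tested fell and 1 rose, with 2.99% of all genes lower and 8% higher. With AML1-ETO 5 of 8 fell and 1 rose, with 11.3% lower and 17.3% higher. With ETO2-GLIS2 3 of 8 fell and 1 rose, with 2.54% lower and 10.8% higher. The medians of the 9 members were -0.59, -2.07 and -0.81, beside 0.16, 0.22 and 0.16 for all genes tested. Each within-line comparison used the same 0 h library at both times, so the falls at 12 and 48 h are not separate observations. The members that rose, BATF3 and in the AML1-ETO clone at 48 h EGR2, were below 1 FPKM at 0 h. They reached the mean of 1 FPKM only with the later library. FOSB in all lines, and EGR1 in empty vector cells and in ETO2-GLIS2 at 12 h, reached it only with the 0 h library. A gene that enters this way is more likely to be called.

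**Figure D1:**
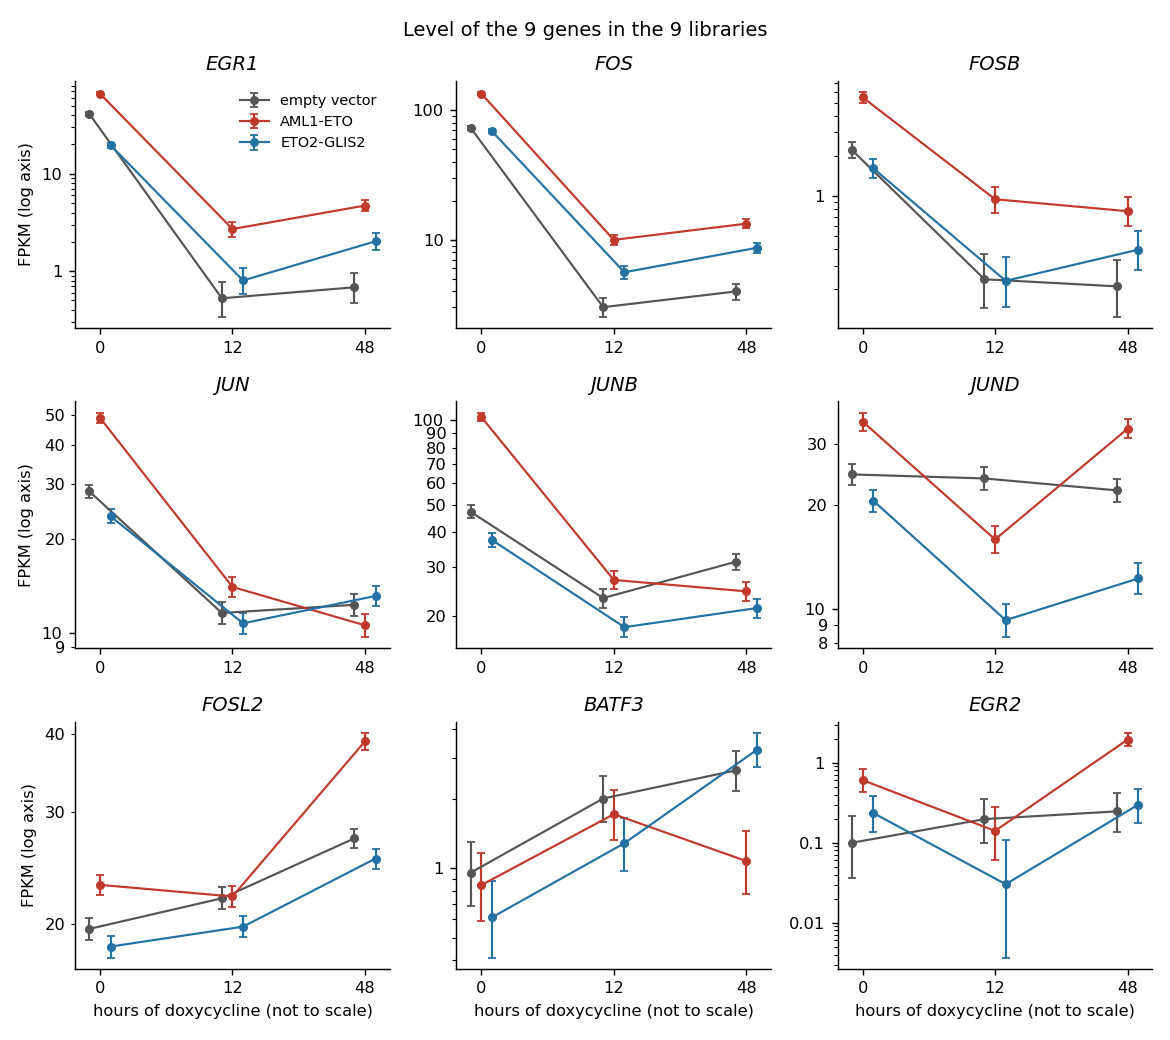
Level of each gene as FPKM (log axis, different range per gene) at 0, 12 and 48 h of doxycycline in the empty vector (gray), AML1-ETO (red) and ETO2-GLIS2 (blue) lines, 1 library per point. Bars are exact 95% counting intervals. EGR1 dropped from 19.6 to 66.4 FPKM at 0 h to at most 4.71 FPKM later, while FOSL2 stayed between 18.4 and 38.9 FPKM.

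EGR1 (ENSG00000120738; chromosome 5, 138465479 to 138469303, GRCh38.p14) encodes a zinc finger activator that is also linked to monocyte-macrophage differentiation, and it had the widest range of the 9 genes. In empty vector cells it went from 40.9 FPKM (2089 reads) at 0 h to 0.527 FPKM (25 reads) at 12 h and 0.683 FPKM (33 reads) at 48 h. In the AML1-ETO clone the values were 66.4, 2.71 and 4.71 FPKM, and in the ETO2-GLIS2 clone 19.6, 0.802 and 2.03 FPKM. All 3 libraries at 0 h lay above all 6 later libraries, and the highest value was 126 times the lowest.

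On the log2 scale EGR1 fell by 6.25 [-6.91, -5.71] in empty vector cells at 12 h, a 76.3-fold difference. It fell by 4.61 [-4.88, -4.36] in the AML1-ETO clone and by 4.59 [-5.07, -4.18] in the ETO2-GLIS2 clone. In empty vector cells 35 of the genes tested had a lower value than EGR1, and all 35 were listed at exactly 0 at 12 h, so EGR1 ranked 1 from the lowest among genes still detected. It ranked 2 in the AML1-ETO clone and 1 in the ETO2-GLIS2 clone by the same count. At 48 h its ranks were 1 in empty vector cells, 84 in the AML1-ETO clone and 12 in the ETO2-GLIS2 clone.

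FOS (ENSG00000170345; chromosome 14, 75278828 to 75282230), the founding FOS-family partner of the JUN proteins, followed the same order of libraries as EGR1. Its level was 73.1, 3.01 and 3.98 FPKM at 0, 12 and 48 h in empty vector cells. It was 135, 9.96 and 13.3 FPKM in the AML1-ETO clone, and 69.0, 5.598 and 8.65 FPKM in the ETO2-GLIS2 clone. The fall at 12 h was 24.2-fold in empty vector cells, 13.5-fold in the AML1-ETO clone and 12.3-fold in the ETO2-GLIS2 clone. At 0 h the empty vector and ETO2-GLIS2 values differed by 0.08 on the log2 scale, and their counting intervals overlapped, as did those of AML1-ETO at 12 h and ETO2-GLIS2 at 48 h.

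FOSB (ENSG00000125740; chromosome 19, 45467996 to 45475179), a second FOS-family member, was the least abundant of the genes that fell. It stood at 2.20, 0.238 and 0.211 FPKM in empty vector cells, where the last value rests on 18 reads. It stood at 5.47, 0.945 and 0.769 FPKM in the AML1-ETO clone, and at 1.61, 0.232 and 0.396 FPKM in the ETO2-GLIS2 clone. The 0 h libraries were again the highest in all lines. FOSB fell by 3.16 [-3.95, -2.54] at 12 h on the log2 scale in empty vector cells and by 2.52 [-2.89, -2.19] in the AML1-ETO clone. In the ETO2-GLIS2 clone its mean at 0 and 12 h was below 1 FPKM, so no call was made on its difference of -2.75.

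JUN (ENSG00000177606; chromosome 1, 58780791 to 58784047) and JUNB (ENSG00000171223; chromosome 19, 12791486 to 12793315) encode partners of the FOS proteins, JUNB being the weaker activator at many sites. JUN stood at 28.5, 11.6 and 12.3 FPKM in empty vector cells, 49.1, 14.04 and 10.6 FPKM in the AML1-ETO clone, and 23.7, 10.7 and 13.1 FPKM in the ETO2-GLIS2 clone. The 6 later libraries lay between 10.6 and 14.04 FPKM, so the lines differed far less after doxycycline than before it. JUN fell by 1.30 [-1.44, -1.16], 1.80 [-1.93, -1.68] and 1.14 [-1.28, -1.01] at 12 h in the empty vector, AML1-ETO and ETO2-GLIS2 lines. At 48 h it fell by 2.21 [-2.35, -2.08] in the AML1-ETO clone, and in the ETO2-GLIS2 clone the difference of -0.85 did not reach 2-fold, but was -1.08 with libraries scaled to a common median ratio.

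JUNB stood at 47.2, 23.2 and 31.3 FPKM in empty vector cells, 103, 26.9 and 24.5 FPKM in the AML1-ETO clone, and 37.4, 18.3 and 21.4 FPKM in the ETO2-GLIS2 clone. Its fall was past 2-fold at 12 h in each line, by 1.02, 1.93 and 1.03 on the log2 scale, and in the empty vector and ETO2-GLIS2 lines it was close to the threshold, with intervals of [-1.16, -0.89] and [-1.18, -0.89]. At 48 h it fell by 2.07 [-2.19, -1.95] in the AML1-ETO clone, while the differences of -0.59 and -0.81 in the other lines did not reach 2-fold, the latter becoming -1.04 after rescaling. The exons of JUNB overlap those of HOOK2 on the opposite strand over 14.153% of their length, and the library kit does not mark strand, so reads there cannot be assigned between both genes.

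**Figure D2:**
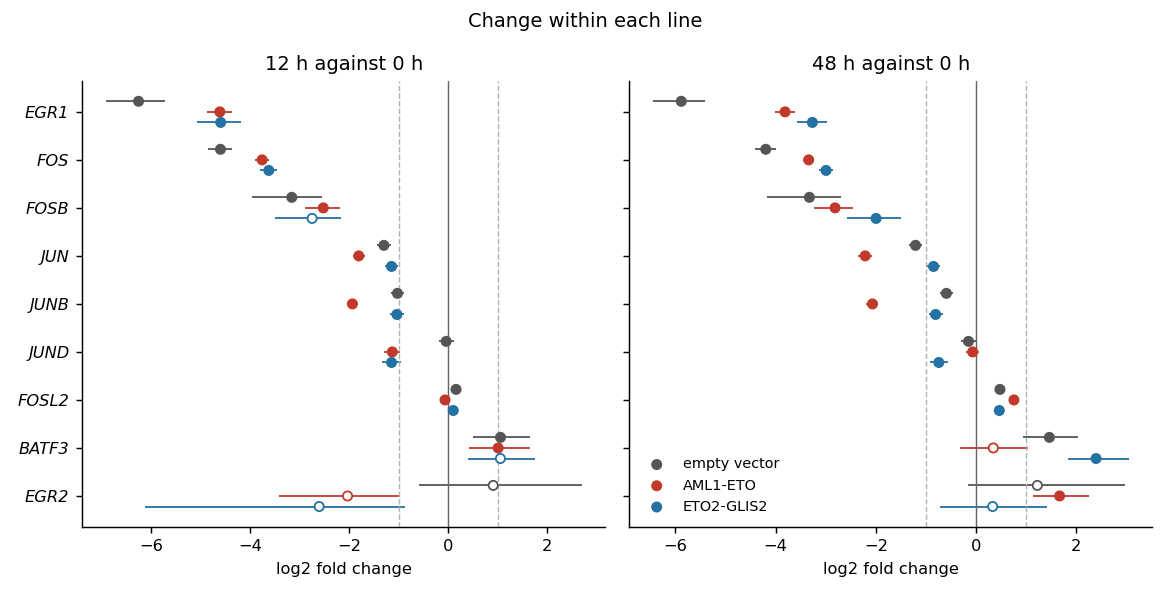
Log2 fold change of each gene at 12 h (left) and 48 h (right) against 0 h of the same line (gray empty vector, red AML1-ETO, blue ETO2-GLIS2; 1 library per condition), with exact 95% counting intervals. Dashed lines mark 2-fold and open points have a mean below 1 FPKM. At 12 h EGR1 and FOS lay between -6.25 and -3.62 in all lines, and FOSL2 lay between -0.06 and 0.16.

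The proximal promoters of EGR1, FOS, FOSB and JUNB, which were highest at 0 h in each line, and of EGR2 are shown. Immediate early promoters are known for binding sites of SRF (the CArG box) and of CREB and ATF factors (the cAMP response element, whose core is TGACG). JUN fell too, but its window is not printed. EGR2 had 6 to 14 reads in empty vector cells and was too low for a call at 12 h in any line. RefSeq windows of 250 bases before the start of the gene (GRCh38.p14) were found for 8 of the 9 members. Capitals mark the CArG boxes and TGACG or its reverse complement CGTCA, and each sequence runs 5′ to 3′ on the strand of the gene.
EGR1, chr5:138465229-138465478, plus strand: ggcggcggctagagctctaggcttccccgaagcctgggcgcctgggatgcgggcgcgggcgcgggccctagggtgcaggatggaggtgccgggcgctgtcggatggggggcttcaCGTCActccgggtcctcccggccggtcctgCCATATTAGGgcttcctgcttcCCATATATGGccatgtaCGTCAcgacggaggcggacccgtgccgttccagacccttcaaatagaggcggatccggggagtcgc
EGR2, farthest inward RefSeq start, chr10:62816367-62816616, minus strand: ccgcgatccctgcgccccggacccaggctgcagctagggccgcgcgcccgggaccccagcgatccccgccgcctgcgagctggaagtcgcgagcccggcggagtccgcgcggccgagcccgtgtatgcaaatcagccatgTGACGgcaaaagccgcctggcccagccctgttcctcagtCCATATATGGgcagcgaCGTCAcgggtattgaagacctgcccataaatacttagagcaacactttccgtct
FOS, chr14:75278578-75278827, plus strand: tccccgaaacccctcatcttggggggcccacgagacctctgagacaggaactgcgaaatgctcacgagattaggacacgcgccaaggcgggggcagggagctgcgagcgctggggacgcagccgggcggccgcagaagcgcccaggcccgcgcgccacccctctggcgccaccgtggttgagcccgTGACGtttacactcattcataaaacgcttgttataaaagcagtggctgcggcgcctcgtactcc
FOSB, chr19:45467746-45467995, plus strand: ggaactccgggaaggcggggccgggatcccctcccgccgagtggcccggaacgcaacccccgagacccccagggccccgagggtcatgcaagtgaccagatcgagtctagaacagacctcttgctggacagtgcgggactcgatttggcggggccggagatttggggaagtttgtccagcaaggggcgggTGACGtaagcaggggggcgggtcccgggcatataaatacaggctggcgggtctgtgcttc
JUNB, chr19:12791236-12791485, plus strand: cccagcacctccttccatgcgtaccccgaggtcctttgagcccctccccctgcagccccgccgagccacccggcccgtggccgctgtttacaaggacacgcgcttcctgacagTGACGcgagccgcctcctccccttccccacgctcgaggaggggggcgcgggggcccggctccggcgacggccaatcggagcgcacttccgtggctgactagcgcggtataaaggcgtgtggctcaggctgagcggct
The EGR1 window holds CArG boxes from -105 to -96 and from -83 to -74, counted from the last base before the start, and the EGR2 window shown holds one from -71 to -62. EGR2 has 3 RefSeq windows, and the other two hold neither a CArG box nor TGACG. A CArG box was present in 1.16% of all 35116 windows of this length, and in 0.827% of those with 60 to 80% G and C. Bases farther than 250 from the start were not searched, so a window without a CArG box, such as that of FOS, does not mean a gene without one. TGACG on either strand was found in 8 of the 10 windows of the members, including those of JUN, from -123 to -119, JUND and FOSL2, against 21.2% of all windows and 28.1% of those of like base composition. TATAAA was found in FOS, FOSB and JUNB, against 10.7% of all windows and 2.71% of those of like base composition. The AP-1 site TGANTCA, the RUNX site TGTGGT and the GLIS-like run TGGGGGGT, searched on both strands, were found in 0 of the 8 members. They were in 6.57%, 11% and 1.33% of all windows, and in 2.91%, 6.74% and 1.71% of those of like base composition. GCGNGGGCG, an EGR site, was found in EGR1 only, and CCGGAA, an ETS site, in FOSB only. Their shares were 8.41% and 14.5% of all windows, and 14.8% and 22% at like base composition. Only these exact letters were searched, so variants of a site were not counted. FOSL2, which passed 2-fold in no line, thus carries TGACG as EGR1 and FOS do, and so does JUND, which fell at 12 h in both fusion lines and stayed level in empty vector cells.

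JUND (ENSG00000130522; chromosome 19, 18279694 to 18281622) encodes the JUN-family member that most cells express at rest and that is the least inducible of its family. It stood at 24.4, 23.8 and 22.0 FPKM in empty vector cells, where the counting intervals of the 3 values overlapped. In the AML1-ETO clone it stood at 34.7, 15.9 and 33.1 FPKM, and in the ETO2-GLIS2 clone at 20.5, 9.30 and 12.3 FPKM. The 12 h library was the lowest of the 3 in both fusion lines. JUND fell by 1.13 [-1.29, -0.97] on the log2 scale in the AML1-ETO clone and by 1.14 [-1.34, -0.95] in the ETO2-GLIS2 clone at 12 h, beside -0.04 [-0.19, 0.11] in empty vector cells. From 12 to 48 h it rose by 1.06 [0.90, 1.22] in the AML1-ETO clone, and the difference of 0.40 [0.18, 0.62] in the ETO2-GLIS2 clone did not reach 2-fold. From 12 to 48 h, 2 of 8 members tested rose and none fell in the AML1-ETO clone, where 9.12% of all genes rose and 10.2% fell. With ETO2-GLIS2 2 of 7 rose and none fell, beside 5.67% and 2.14% of all genes. With the empty vector none of 6 passed 2-fold, beside 2.22% higher and 3.04% lower. Among those that rose, EGR2 in the AML1-ETO clone and EGR1 in the ETO2-GLIS2 clone were below 1 FPKM at 12 h.

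FOSL2 (ENSG00000075426; chromosome 2, 28392858 to 28417317) encodes FRA2, a FOS-family protein that is usually induced later and lasts longer than FOS. It stood at 19.6, 21.9 and 27.3 FPKM in empty vector cells, 23.04, 22.1 and 38.9 FPKM in the AML1-ETO clone, and 18.4, 19.8 and 25.4 FPKM in the ETO2-GLIS2 clone. It was highest at 48 h in each line, but no difference between times reached 2-fold, the largest being 0.82 [0.74, 0.89] on the log2 scale at 48 h against 12 h in the AML1-ETO clone, beside 0.75 [0.69, 0.83] there against 0 h. At 12 h its differences were 0.16, -0.06 and 0.10, beside medians of 0.14, 0.18 and 0.11 for all genes. The AML1-ETO value, with an interval of [-0.14, 0.02], lay below its median, and the other values were close to theirs. With the libraries scaled to a common median ratio they became -0.04, -0.26 and -0.03.

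With FOS low and FOSL2 steady, the make-up of the FOS-family transcripts turned over. FOS made up 77.0%, 82.6% and 77.5% of the summed FPKM of FOS, FOSB and FOSL2 at 0 h in the empty vector, AML1-ETO and ETO2-GLIS2 lines. At 12 h its share was 11.9%, 30.2% and 21.9%, and at 48 h it was 12.6%, 25.1% and 25.1%. FOSL2 made up 87.1%, 66.9% and 77.2% at 12 h and 86.7%, 73.4% and 73.7% at 48 h. FOS was therefore the main FOS-family transcript in the 3 libraries at 0 h and FOSL2 in the 6 later libraries. FPKM is a level per length of exon, so these shares compare transcripts, not proteins.

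The sum of the FOS family went from 94.95 to 25.2 and 31.5 FPKM in empty vector cells, from 163.4 to 33.0 and 53.0 FPKM in the AML1-ETO clone, and from 89.0 to 25.6 and 34.4 FPKM with ETO2-GLIS2. The sum of JUN, JUNB and JUND went from 100.1 to 58.6 and 65.6 FPKM, from 186.6 to 56.9 and 68.2 FPKM, and from 81.7 to 38.3 and 46.8 FPKM in the same lines. The JUN family thus kept more of its 0 h level than the FOS family in these sums. JUND made up 48.5% of the JUN-family sum in the AML1-ETO clone at 48 h and between 18.6% and 40.6% in the other 8 libraries.

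**Figure D3:**
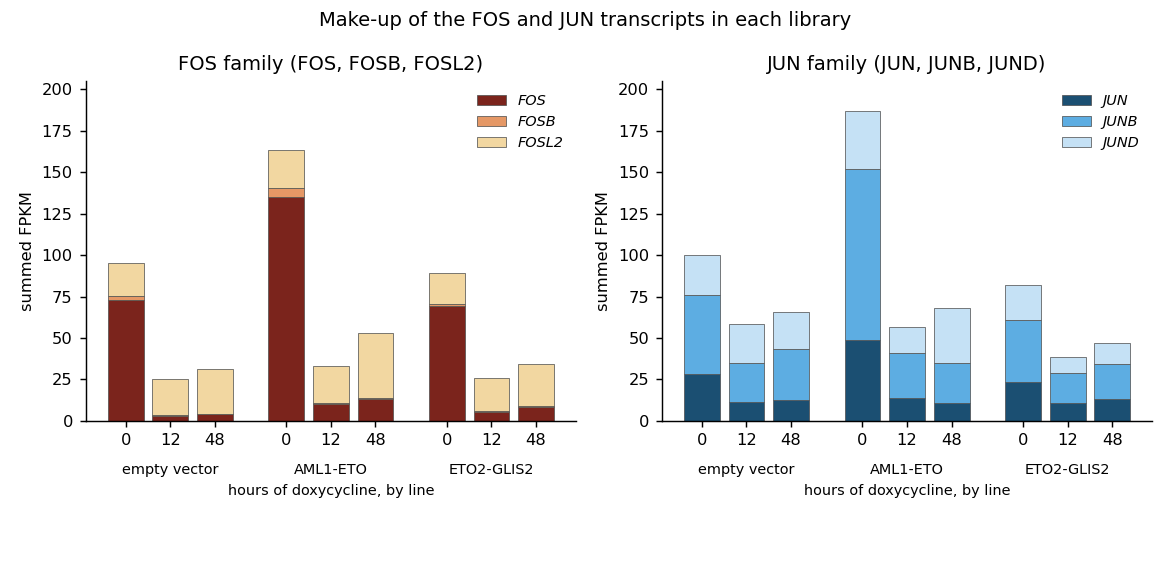
Summed FPKM of the FOS family (left) and the JUN family (right) in each of the 9 libraries, with the part of each gene stacked from 0. FOS filled 77.0% to 82.6% of the FOS-family bar at 0 h and 11.9% to 30.2% at 12 and 48 h, when FOSL2 filled most of it.

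BATF3 (ENSG00000123685; chromosome 1, 212686417 to 212699840) encodes a bZIP factor that pairs with JUN proteins and is known from dendritic cell development. It stood at 0.957, 2.01 and 2.66 FPKM (40, 78 and 105 reads) in empty vector cells. It stood at 0.845, 1.71 and 1.07 FPKM (36, 68 and 42 reads) in the AML1-ETO clone, and at 0.612, 1.28 and 3.26 FPKM (29, 59 and 137 reads) in the ETO2-GLIS2 clone. All lines were lowest at 0 h and had higher values at 12 h, and the AML1-ETO line then parted from the other lines. At 48 h BATF3 had risen by 1.46 [0.93, 2.04] on the log2 scale in empty vector cells and by 2.39 [1.83, 3.04] in the ETO2-GLIS2 clone, and in the AML1-ETO clone the difference was 0.34 [-0.33, 1.03] with a mean below 1 FPKM. At 12 h the rises of 1.06 and 1.01 in the empty vector and AML1-ETO lines were past 2-fold as deposited, and were 0.86 and 0.82 after rescaling by the median ratio.

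EGR2 (ENSG00000122877; chromosome 10, 62811996 to 62819167) encodes a zinc finger factor related to EGR1, and it was the scarcest member. Its level was 0.10, 0.197 and 0.247 FPKM (6, 11 and 14 reads) in empty vector cells. It was 0.605, 0.141 and 1.94 FPKM (37, 8 and 109 reads) in the AML1-ETO clone, and 0.235, 0.0303 and 0.298 FPKM (16, 2 and 18 reads) in the ETO2-GLIS2 clone. The AML1-ETO library at 48 h stood above the other 8, and its counting interval of 1.59 to 2.34 FPKM did not overlap theirs. EGR2 had risen there by 1.67 [1.13, 2.26] on the log2 scale against 0 h and by 3.70 [2.76, 5.04] against 12 h. Elsewhere its level was too low for a call, and the interval of its 12 h difference in the ETO2-GLIS2 clone ran from -6.12 to -0.87. The annotation has 3.91% of its exon bases shared with another gene on the same strand.

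The lines were next compared with each other at the same time, with the empty vector line as the control for doxycycline. Before doxycycline, JUNB and FOSB were higher in the AML1-ETO clone than in empty vector cells, by 1.12 [1.03, 1.22] and 1.31 [1.07, 1.56] on the log2 scale. These were 2 of 7 members tested, with 2.67% of all genes higher and 2.24% lower, and no member was lower. FOS, JUN and EGR1 differed by 0.88, 0.79 and 0.70 in the same direction, within 2-fold. In the ETO2-GLIS2 clone at 0 h EGR1 was lower by 1.06 [-1.17, -0.96], the only call among 7 members, where 2.99% of all genes were lower and 3.42% were higher. The AML1-ETO library at 0 h held the highest level among all 9 libraries of JUN, JUNB, JUND, FOS, FOSB and EGR1.

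At 12 h FOS was higher in the AML1-ETO clone than in empty vector cells by 1.73 [1.46, 2.01] on the log2 scale, and EGR1 was higher by 2.34 [1.74, 3.04]. No other call was made among the 7 members tested, and 4.4% of all genes were higher and 4.37% lower. FOSB, at too low a mean for a call, differed by 1.95 [1.27, 2.77]. In the ETO2-GLIS2 clone JUND was lower by 1.35 [-1.55, -1.16], and this was the only call among 6 members, with 4.36% of all genes lower and 2.57% higher. FOS stood 0.89 [0.61, 1.19] above empty vector cells there, within 2-fold.

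At 48 h EGR1 was higher by 2.77 [2.25, 3.36] in the AML1-ETO clone and by 1.55 [0.99, 2.18] in the ETO2-GLIS2 clone. FOS was higher by 1.74 [1.51, 1.98] and 1.12 [0.88, 1.37] in the same lines. The residual levels of both genes were thus in the same order at 12 and 48 h, with AML1-ETO highest, ETO2-GLIS2 next and the empty vector line lowest, although the counting intervals of EGR1 in ETO2-GLIS2 and the empty vector line overlapped at 12 h. EGR2 was higher by 2.93 [2.17, 3.90] and BATF3 was lower by 1.30 [-1.86, -0.78] in the AML1-ETO clone. This made 3 of 8 members higher and 1 lower in the AML1-ETO clone, beside 11.8% and 11.7% of all genes, and 2 of 7 higher and none lower in the ETO2-GLIS2 clone, beside 4.15% and 2.53%. Both fusion lines were compared with the same empty vector library, so these differences share it. EGR1 at 12 and 48 h and EGR2 at 48 h were below 1 FPKM in empty vector cells. Where called higher, they reached the mean of 1 FPKM only with the fusion library.

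When the change of empty vector cells over the same time was taken away from that of a fusion line, the falls of EGR1 and FOS turned into positive values. EGR1 became 1.64 and 1.66 at 12 h and 2.07 and 2.62 at 48 h on the log2 scale in the AML1-ETO and ETO2-GLIS2 clones, and FOS became 0.84, 0.98, 0.86 and 1.203 in that order. JUNB at 48 h in the AML1-ETO clone kept a negative value of -1.48, and JUND at 12 h kept -1.09 and -1.10. EGR1 and FOS were thus lower after doxycycline in both fusion lines but fell by less than in empty vector cells, while for JUND at 12 h the subtraction took little away, since its empty vector difference was -0.04. The subtraction also carries differences between the lines at 0 h. Against empty vector cells, JUNB in the AML1-ETO clone differed by 1.12 at 0 h and by -0.35 [-0.50, -0.20] at 48 h. EGR1 in the ETO2-GLIS2 clone differed by -1.06 at 0 h and, with a mean below 1 FPKM, by 0.60 [-0.13, 1.37] at 12 h.

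**Figure D4:**
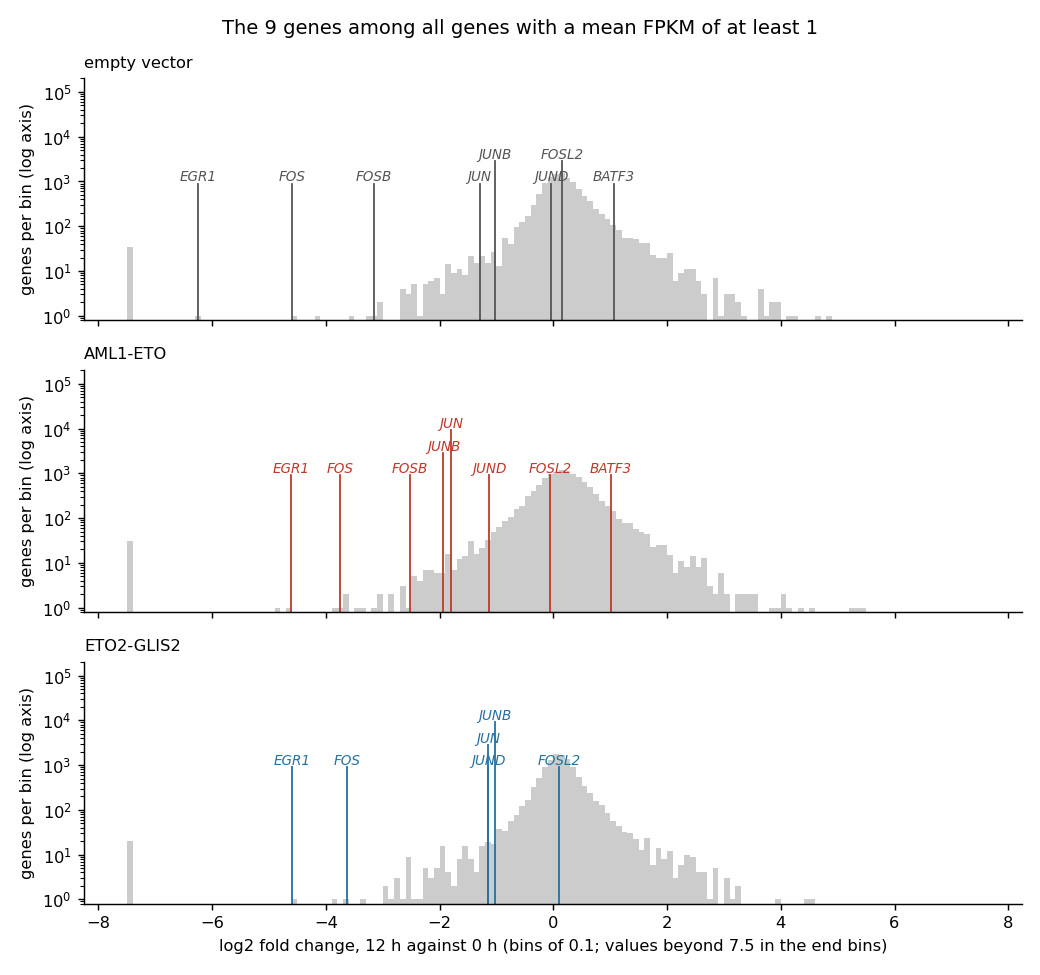
Log2 fold change at 12 h against 0 h of all genes with a mean of at least 1 FPKM (gray histogram, log count axis, bins of 0.1, values beyond 7.5 placed in the end bins) with the called or tested members as lines, one panel per line. EGR1 and FOS lay at the lower end in all panels, where the bar at the far left held genes listed at 0 at 12 h, and FOSL2 lay near the middle.

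Genes with the pattern most like each member were sought among the 11819 genes with a mean of at least 1 FPKM over the 9 libraries, for the members with a mean of at least 1 FPKM whose highest value was at least 4 times the lowest, by Pearson's r of the log2 levels over the 9 libraries. The 9 libraries come from 3 lines that share times, so these are descriptions. FOS was most like EGR1 (r = 0.991), then FOSB (0.958) and MORF4L2 (0.955). FOSB was most like KCNK6 and EGR1 (both 0.972). EGR1 was most like FOS, FOSB and SND1 (0.941). JUN was most like JUNB (0.950), DUSP1 (0.920) and FDPS (0.917), and JUNB was most like DUSP1 (0.960), JUN and IER2 (0.947). BATF3 was most like PFKFB3 (0.982), MAT2A (0.973) and ASB1 (0.971). Among the 3 genes nearest to each, EGR1, FOS and FOSB thus named one another, JUN and JUNB named each other, and BATF3 named no member. The likeness between JUN or JUNB and the EGR1, FOS and FOSB set was not listed. JUND and FOSL2 varied too little, and EGR2 was too low, for this search.

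DUSP1 and IER2 are themselves immediate early genes. DUSP1, a phosphatase that switches MAP kinases off, stood at 3.76, 1.71 and 2.42 FPKM in empty vector cells, 7.49, 2.19 and 2.06 FPKM in the AML1-ETO clone, and 3.72, 1.69 and 1.25 FPKM in the ETO2-GLIS2 clone. It fell past 2-fold at 12 h in all 3 lines, as EGR1, FOS, JUN and JUNB did. IER2 stood at 6.79, 3.45 and 5.06 FPKM in empty vector cells, 9.44, 4.84 and 4.50 FPKM in the AML1-ETO clone, and 5.37, 2.63 and 3.77 FPKM in the ETO2-GLIS2 clone. It was highest at 0 h in each line, with differences close to 2-fold at 12 h.

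The fall was not shared by most other immediate early genes that could be tested. Of 34 such genes, none of 22 tested passed 2-fold in empty vector cells at 12 h, and their median was -0.12 on the log2 scale. Of all genes there, 1.88% were lower and 5.64% higher. With ETO2-GLIS2 1 of 21 fell and none rose, with a median of -0.004, where 1.46% of all genes were lower and 3.03% higher. The counts in these lines were thus near the shares of all genes. In the AML1-ETO clone 7 of 23 fell and 1 rose at 12 h, where 2.39% of all genes were lower, with a median of -0.52. At 48 h 9 of 24 fell and 5 rose, where 11.3% were lower and 17.3% higher. The largest falls there at 48 h were those of ZFP36L2, an RNA-binding protein that destabilizes AU-rich transcripts, of KLF10 and of NR4A2. ZFP36L2 went from 369 to 71.5 and 12.2 FPKM in the AML1-ETO clone, from 334 to 242 and 205.3 FPKM in empty vector cells, and from 204 to 130 and 113 FPKM with ETO2-GLIS2. KLF10, a zinc finger factor induced by TGF-beta, went from 8.87 to 4.29 and 0.482 FPKM in the AML1-ETO clone and stayed between 8.38 and 10.8 FPKM in the other lines. ZFP36L1, the paralog of ZFP36L2, rose in all 3 lines at 48 h, to 14.2 FPKM from 0.818 FPKM in the AML1-ETO clone.

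Of the regulators that act before the members on the pathway, the SRF genes and the MAP kinases showed 1 call in all against 0 h and the feedback inhibitors more. None of the 6 SRF and ternary complex genes passed 2-fold in any line at 12 or 48 h, and SRF itself, named after its values were seen, stayed between 24.1 and 41.2 FPKM. Of 15 MAP kinase cascade genes tested, the only call against 0 h was a fall of RPS6KA1, the kinase RSK1, by 1.83 [-1.93, -1.73] in the AML1-ETO clone at 48 h. In that comparison 11.3% of all genes were lower. Against empty vector cells RPS6KA1 was lower in the AML1-ETO clone at 12 and 48 h. MAPK3, named after its values were seen, was higher there at 48 h, where 11.8% of all genes were higher and 11.7% lower. Among the feedback inhibitors of the MAP kinases, 1 of 11 rose and 1 fell in empty vector cells at each time. Of all genes there, 5.64% were higher and 1.88% lower at 12 h, and 8% higher and 2.99% lower at 48 h. With AML1-ETO 2 of 11 fell at 12 h, where 2.39% of all genes were lower. At 48 h 1 rose and 3 fell there, where 17.3% of all genes were higher and 11.3% lower. In the ETO2-GLIS2 clone 1 of 11 fell at 12 h, where 1.46% of all genes were lower. At 48 h 4 of 12 rose and 2 fell there, where 10.8% of all genes were higher and 2.54% lower. The ERK phosphatase DUSP6 rose at 48 h in both fusion lines, from 2.81 to 13.6 FPKM in AML1-ETO and from 3.46 to 10.1 FPKM in ETO2-GLIS2. DUSP4 went from 2.79 to 11.9 FPKM in ETO2-GLIS2 at 48 h, while in AML1-ETO it stood at 1.34 and 1.01 FPKM. DUSP2 fell at 48 h in all 3 lines.

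Among 15 other bZIP factors the calls at both times were rises. None of 12 tested passed 2-fold at 12 h in the empty vector or ETO2-GLIS2 line, and 2 of 12 rose in the AML1-ETO clone. Of all genes at 12 h, 5.64%, 3.03% and 6.57% were higher in the empty vector, ETO2-GLIS2 and AML1-ETO lines. At 48 h 4 of 12 rose in empty vector cells, 5 of 13 in the AML1-ETO clone and 5 of 13 in the ETO2-GLIS2 clone, and none fell, with medians over the genes tested of 0.80, 0.60 and 0.85. Of all genes tested 8%, 17.3% and 10.8% were higher at that time, more than were lower in each line. ATF4, the main transcription factor of the integrated stress response, rose to 249, 312 and 217 FPKM at 48 h from 109, 86.7 and 86.8 FPKM in the empty vector, AML1-ETO and ETO2-GLIS2 lines. ATF3 and CREM rose in the same 3 lines at 48 h. BATF2, a relative of BATF3, was at 11.9 FPKM (508 reads) in the AML1-ETO clone at 48 h and between 0.0385 and 0.529 FPKM in the other 8 libraries, whereas BATF3 was low there. The other EGR genes and the NAB corepressors were named after their values were seen. NAB1 and NAB2 were tested and did not pass 2-fold against 0 h in any line at 12 or 48 h. Between lines at 48 h, NAB2 was more than 2-fold higher in the AML1-ETO clone (16.1 FPKM) than in empty vector cells (7.54 FPKM). EGR3 stood at no more than 0.258 FPKM, and EGR4 was listed at 0 in all 9 libraries.

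**Figure D5:**
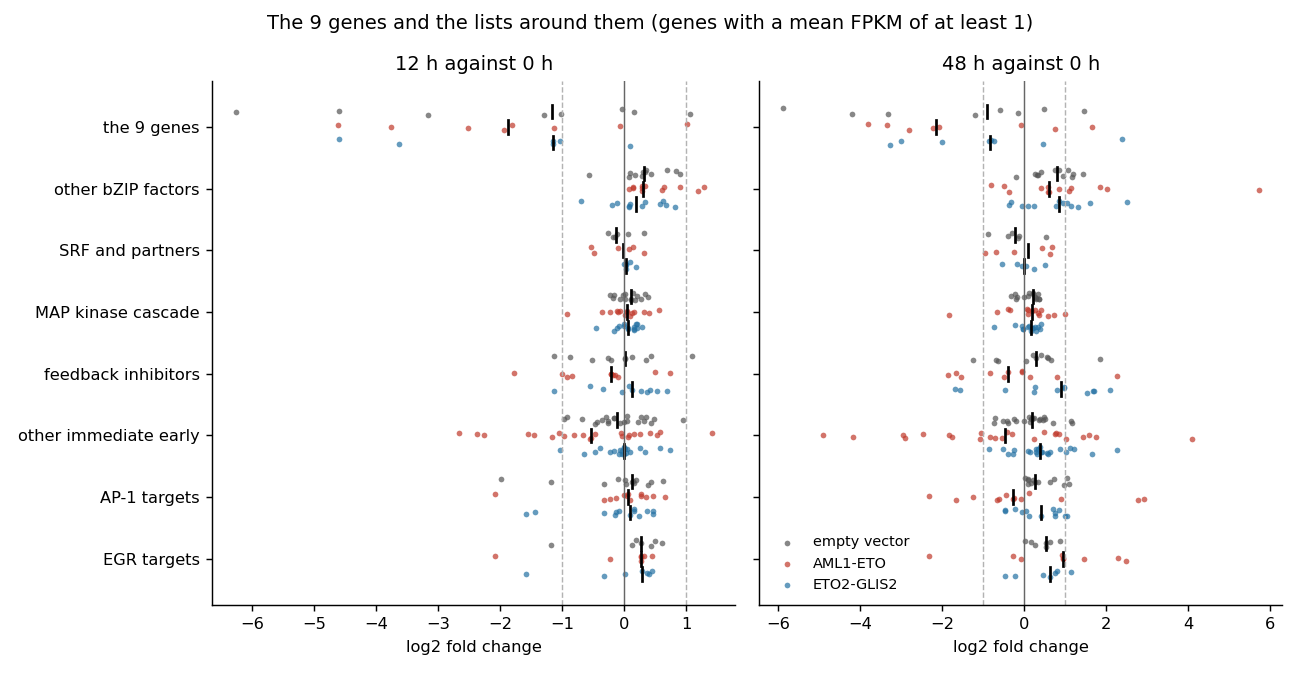
Log2 fold change at 12 h (left) and 48 h (right) against 0 h of the members and of 7 lists of related genes, for genes with a mean of at least 1 FPKM in the pair of libraries (gray empty vector, red AML1-ETO, blue ETO2-GLIS2). Points are genes, black bars are medians and dashed lines mark 2-fold. Most list genes lay within 2-fold at 12 h, with medians between -0.52 and 0.33.

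Among known target genes of the factors, TNF and CXCL8 were the AP-1 targets that fell at 12 h. Of 13 AP-1 target genes tested, 2 fell at 12 h in empty vector cells, 1 in the AML1-ETO clone and 2 in the ETO2-GLIS2 clone, and none rose, with medians of 0.14, 0.06 and 0.09. Of all genes tested 1.88%, 2.39% and 1.46% were lower, so 2 of 13 is a larger share than the background, resting on 2 genes. The gene that fell in all 3 lines was TNF, the inflammatory cytokine, which is also in the list of EGR targets. TNF stood at 2.49, 1.10 and 3.02 FPKM in empty vector cells, 5.57, 1.31 and 1.10 FPKM in the AML1-ETO clone, and 2.71, 0.8997 and 2.33 FPKM in the ETO2-GLIS2 clone. CXCL8, the neutrophil chemokine, stood at 5.02, 1.27 and 5.34 FPKM in empty vector cells and at 12.6, 4.67 and 12.2 FPKM in the ETO2-GLIS2 clone. Both were back near their 0 h level at 48 h in these lines, where EGR1 and FOS were not. In the AML1-ETO clone CXCL8 stood at 15.0, 20.7 and 113 FPKM.

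At 48 h 2 of 13 AP-1 targets rose in empty vector cells and none fell, in the AML1-ETO clone 2 rose and 3 fell, and in the ETO2-GLIS2 clone 1 rose and none fell. In the same order of lines, 8%, 17.3% and 10.8% of all genes were higher and 2.99%, 11.3% and 2.54% lower. TIMP1 and PLAUR, both linked to proteolysis around the cell, rose in empty vector cells and fell in the AML1-ETO clone, where PLAUR fell by 1.25 and TIMP1 by 1.66 on the log2 scale. Of the EGR targets at 48 h, none of 7 passed 2-fold in empty vector cells and 1 of 7 rose in the ETO2-GLIS2 clone. In the AML1-ETO clone 3 of 9 rose and TNF fell, where 17.3% of all genes were higher and 11.3% lower. At 12 h 7 were tested there, so some of the 9 reached the mean of 1 FPKM only with the 48 h library. The genes that rose were IL2RB, PDGFB and PDGFA, and a link to EGR2 was not tested. In the AML1-ETO library at 48 h the summed monocytic markers were at their lowest, 325.566 FPKM. There 4 of 8 tested were lower against 0 h, LYZ, ITGB2 and CEBPA the most, and their part in these differences was not tested.

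Heat shock genes, which encode chaperones, were listed as a sign of stress. Of 8 tested in empty vector cells at 12 h, 2 fell, where 1.88% of all genes were lower. None of 10 passed 2-fold in either fusion line at that time. Of all genes 6.57% were higher and 2.39% lower with AML1-ETO, and 3.03% higher and 1.46% lower with ETO2-GLIS2. The summed level of the 10 genes was 922.153, 596.693 and 822.206 FPKM over the 3 times in empty vector cells. It was 875.905, 976.778 and 768.653 FPKM in the AML1-ETO clone, and 1007.62, 880.154 and 667.926 FPKM with ETO2-GLIS2. The sum was highest at 0 h in the empty vector and ETO2-GLIS2 lines and at 12 h in the AML1-ETO line. At 12 h 4 of 10 genes were higher in the AML1-ETO clone than in empty vector cells, against 4.4% of all genes. In the ETO2-GLIS2 clone 2 of 9 were, against 2.57%. Both comparisons share the empty vector library at 12 h, where the sum of that line was lowest. The part of stress in the differences of EGR1 and FOS was not tested.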

How the data were processed

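RNA-seq of 9 libraries from 3 U937 lines was analysed. The authors made the libraries with the TruSeq RNA kit, which does not mark strand, aligned reads to hg38 with HISAT2 (2.0.5), used samtools (1.7) on the alignments and HTSeq (0.9.1) for counting, and deposited FPKM, which scales a gene's reads by its exon length and the library total. The submitters' processing notes also name DESeq2 (1.22.2). The annotation version is not given in the sources used here. FPKM depends on the library total, so a shift in abundant genes moves all other values.

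From the deposited FPKM the read counts were recovered in Python (3.11.15; numpy 2.4.6, pandas 2.3.3, scipy 1.17.1, matplotlib 3.10.9), since a gene's values step by the worth of 1 read. The implied exon length lay within 0.1 bases of a whole number for 99.297% of 23889 genes, those detected in 3 or more libraries. Reads served only for exact 95% Clopper-Pearson intervals and a detection floor of 3 reads. Without molecular identifiers PCR reads do not each stand for a molecule, so intervals cover counting error only. Recovery and calls were tested on data simulated for AML1-ETO at 48 against 0 h in 23889 genes: 99.54% of 23407 solved genes got the exact reads, and 199 of 200 genes changed 4-fold were called in the right direction, while 105 unchanged genes were called higher and 79 lower.

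Differences are log2 of FPKM plus 0.01, which understates the change of very low genes, called past 2-fold with a mean of at least 1 FPKM in the 2 libraries. With 1 library per condition there was no test. Members, lists and the rule for named genes were chosen with earlier results of these data known. The genes named are the members, up to 3 risen and 3 fallen genes of each list per line at 48 h, the 4 genes of the constructs, and the 3 genes most like each variable member. Coordinates and promoters come from RefSeq (GRCh38.p14), and exon overlaps from an annotation on GRCh37. Alternatives changed the pseudocount, filter, scaling, threshold, reference library and use of the empty vector line. Rescaling by the median ratio lowers the median change of all genes within a line by 0.14 to 0.25 on the log2 scale. The study's other assays were not analysed here.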

Additional observations from a re-analysis of the deposited data

Results flagged for a closer look

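The results below concern list genes whose change from 0 h went opposite ways in different lines at both 12 and 48 h, beyond their counting intervals, with 1 library per condition. The differences between lines were not tested. RPS6KA1, the kinase RSK1 of the MAP kinase pathway, changed by -1.83 on the log2 scale at 48 h in the AML1-ETO clone, beside 0.36 in empty vector cells and 0.12 in the ETO2-GLIS2 clone, so the AML1-ETO change was -2.187 against empty vector cells and -1.949 against the ETO2-GLIS2 line. Its level in the AML1-ETO clone was 39.2, 20.7 and 11.03 FPKM over the 3 times, and it lay between 34.9 and 50.5 FPKM in the other 6 libraries. DUSP10, a phosphatase of the stress-activated MAP kinases, changed by -1.55 in the AML1-ETO clone and by 0.98 in the ETO2-GLIS2 clone at 48 h, a difference of -2.529. BTG2, an antiproliferative immediate early gene, changed by -0.70 in the AML1-ETO clone, 1.21 in the ETO2-GLIS2 clone and 0.48 in empty vector cells at 48 h, which gives differences of -1.918 and -1.188. Of these 3 genes, RPS6KA1 and DUSP10 passed 2-fold at 48 h in the AML1-ETO clone, and BTG2 did in the ETO2-GLIS2 clone.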

How the results depend on the processing

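No paired analysis was possible because no value comes from a test: each difference from 0 h is already taken within a line, with 1 library per condition. A model with the 3 lines as repeats of each time was not run, since they carry different constructs. Of 95 alternative counts of members past 2-fold, 68 stayed within 1.5 times the reported count and 27 did not. A 3-fold threshold left 3 members at 12 h and 3 at 48 h in empty vector cells and 2 at 12 h in the ETO2-GLIS2 clone, and 0 for AML1-ETO against empty vector cells at 0 h and 0 for ETO2-GLIS2 against it at each time. A mean of at least 5 FPKM left 3 in empty vector cells and 2 in the ETO2-GLIS2 clone at 48 h. Against empty vector cells it left 1 for AML1-ETO at each time and 1 for ETO2-GLIS2 at 48 h. With 12 h as reference for 48 h, the counts were 0, 2 and 2 in the empty vector, AML1-ETO and ETO2-GLIS2 lines, and with empty vector 0 h as reference 4 in AML1-ETO at 12 h. With no filter the counts were 8 in ETO2-GLIS2 at 12 h and 2 for ETO2-GLIS2 against empty vector cells at 0 h and at 12 h. At 1.5-fold they were 7 in ETO2-GLIS2 at 48 h, 5 for AML1-ETO at 0 h and 3 for ETO2-GLIS2 at 12 h, both against empty vector cells. With a pseudocount of 1 FPKM, 0 remained for ETO2-GLIS2 against empty vector cells at 48 h. Subtracting the change of empty vector cells left 2 in AML1-ETO at 12 h, 3 at 48 h and 2 in ETO2-GLIS2 at 12 h.

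Of 234 alternative values of single members, 26 changed sign, 21 of them under that subtraction, which removes what the lines share, 3 with empty vector 0 h as reference and 2 under rescaling. Among values past 2-fold as reported with a mean of at least 1 FPKM, 13 changed sign, all under the subtraction. In AML1-ETO at 12 h FOS became 0.84, FOSB 0.64, EGR1 1.64 and BATF3 -0.047, and at 48 h FOS became 0.86, FOSB 0.51 and EGR1 2.07. In ETO2-GLIS2 at 12 h JUN became 0.15, FOS 0.98 and EGR1 1.66, and at 48 h FOS became 1.203, FOSB 1.33 and EGR1 2.62. The falls of EGR1 and FOS past 2-fold within each line did not depend on scaling or filter. Depth limits EGR2, FOSB and BATF3, which rest on 2 to 504 reads.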
